A study of Homo sapiens with 6 samples.

Results

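The zinc-finger genes of chromosome 19 were examined as sites of R-loops, the structures in which a nascent RNA pairs with its DNA template and leaves the other DNA strand unpaired. The members were the protein-coding genes of chromosome 19 whose symbol begins with ZNF and a digit, 249 of the 1480 protein-coding genes of that chromosome in the GENCODE 44 annotation lifted to GRCh37. Of these, 3 are readthrough records that join neighbouring genes (ZNF559-ZNF177, ZNF625-ZNF20 and ZNF816-ZNF321P). Single-stranded DNA was mapped by spKAS-seq, in which N3-kethoxal reacts with unpaired guanines and the strand of each fragment is kept, in wild-type HEK293T cells, a line derived from human embryonic kidney. One group of cells was left untreated. The other received 10 μM N2-heptynyl-dG, a guanine nucleoside with an alkynyl chain on its exocyclic nitrogen that cells build into their DNA, for 3 h, and both groups were then labelled with 5 mM N3-kethoxal for 10 min. The labels give 2 spKAS-seq samples per condition and 2 untreated inputs, but the processed data are 1 list of R-loop peaks per condition, with 10231 untreated and 11085 treated peaks, of which 684 and 751 lie on chromosome 19.

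C2H2 zinc-finger proteins bind DNA through tandem fingers, each held together by a zinc ion bound to a pair of cysteines and a pair of histidines, and joined by a short linker with the residues TGEKP or TGERP. Many of those encoded on chromosome 19 also carry a KRAB domain, which recruits TRIM28 and, through it, the histone methyltransferase SETDB1 and HP1 proteins, and they are best known for silencing transposable elements. The genes arose by tandem duplication and lie in clusters, and the fingers are typically encoded together in one long last exon. In the canonical transcripts used here, the median last exon was 3290 bp in the ZNF genes and 725 bp in the 1231 other coding genes of chromosome 19, and 233 of the 249 ZNF genes had at least 1 linker in frame in the coding sequence. The median gene record was 25900 bp long in the ZNF genes and 13800 bp in the others.

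A peak was assigned to a gene when it overlapped the gene record or 1 kb on either side, so that 1 peak can count for several genes and a gene-peak pair is the unit of position and strand. The lists hold positions and strands but no height, fold enrichment or p-value, so each comparison below is between the presence of peaks in 2 lists. With 1 list per condition no difference between conditions could be tested, and the 95% Wilson intervals cover counting error over genes or peaks only, which are not replicates. The lists do not say which DNA strand their strand column stands for, so strands are given below as the gene's own or the opposite one.

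The sequences below are taken from the starts and from a last exon of these genes. The 120-base stretches run from 100 bases before the canonical start site to the first 20 transcribed bases, 5′ to 3′ on the gene strand of GRCh37, with each CG dinucleotide in capitals. ZNF761 and ZNF468 carried a start peak with the same borders in both lists, ZNF101 and ZNF91 carried a start peak in the treated list only, and ZNF420 carried peaks on different strands in the 2 lists. Not all of the bases lie under a peak. The ZNF101 peak begins inside its stretch, and the treated ZNF420 peak ends before its stretch begins.
ZNF761, chr19:53935137-53935256, plus strand: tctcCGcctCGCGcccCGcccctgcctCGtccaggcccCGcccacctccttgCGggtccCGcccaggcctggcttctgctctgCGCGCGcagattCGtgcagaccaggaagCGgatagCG
ZNF468, chr19:53360853-53360972, minus strand: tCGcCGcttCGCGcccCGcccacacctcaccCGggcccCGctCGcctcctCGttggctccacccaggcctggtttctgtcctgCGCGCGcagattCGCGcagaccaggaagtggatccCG
ZNF101, chr19:19779548-19779667, plus strand: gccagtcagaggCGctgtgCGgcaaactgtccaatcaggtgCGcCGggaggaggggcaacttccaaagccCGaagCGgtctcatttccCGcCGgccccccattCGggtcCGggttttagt
ZNF91, chr19:23578254-23578373, minus strand: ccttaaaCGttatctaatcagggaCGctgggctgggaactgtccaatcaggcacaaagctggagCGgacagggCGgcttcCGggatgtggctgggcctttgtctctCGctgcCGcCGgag
ZNF420, chr19:37569235-37569354, plus strand: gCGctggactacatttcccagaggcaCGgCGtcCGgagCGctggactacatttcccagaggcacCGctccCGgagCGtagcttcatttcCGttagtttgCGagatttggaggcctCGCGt
These stretches held between 8 and 15 CG dinucleotides, with a GC content from 60.0% in ZNF420 to 73.3% in ZNF761. The coding sequence under the peak that ZNF180 carried over its fingers, in both lists, is of another kind. The 99 bases below run from one linker to the next, with the linker codons in capitals, and had a GC content of 41.4% and 3 CG dinucleotides.
ZNF180, chr19:44980970-44981068, minus strand: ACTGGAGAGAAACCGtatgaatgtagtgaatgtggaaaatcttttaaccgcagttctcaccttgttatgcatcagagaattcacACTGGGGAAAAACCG

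R-loop peaks were found at 103 of the 249 ZNF genes without treatment (41.4%, 95% interval 35.4 to 47.6) and at 108 with it (43.4%, 37.4 to 49.6). Among the other coding genes of chromosome 19 the shares were 44.9% (42.2 to 47.7) and 45.6% (42.8 to 48.4), so that the intervals overlapped in both lists. This comparison moved with the settings. With peaks of 750 bp or wider the ZNF shares were 20.9% and 23.7%, against 33.1% and 34.9%, and without the 1-kb flanks the order turned, with 36.9% and 37.3% of ZNF genes against 33.9% and 35.9%. It also turned with gene-strand peaks only, with 34.5% and 35.7% against 33.1% and 34.2%. The 118 distinct untreated peaks at ZNF genes covered 1.01% of the gene windows and the 129 treated peaks 1.13%, against 1.62% and 1.70% of the windows of the other coding genes. Of these peaks at ZNF genes, 29 untreated (24.6%) and 30 treated (23.3%) also lay in the window of another coding gene. They count in both gene sets. Peaks at ZNF genes were narrower. Their median width was 500 bp in both lists, the smallest width in the lists, against 750 bp at the other coding genes, and 20.3% of the untreated and 20.2% of the treated peaks at ZNF genes were 1000 bp or wider, against 44.2% and 39.3%. Most ZNF genes with a peak had a single one, 76 of 103 genes in the untreated list and 74 of 108 in the treated list.

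The gene sets differed in where the peaks lay. A peak was called a start peak when it overlapped the 500 bp on either side of the canonical start site, and a 3′ exon peak when it overlapped the last exon and not that start window. In the untreated list 84 ZNF genes had a start peak (33.7%, 28.1 to 39.8), against 18.4% (16.3 to 20.6) of the other coding genes. The treated list gave 88 ZNF genes (35.3%, 29.7 to 41.5), against 20.8% (18.6 to 23.2). Conversely, 12 ZNF genes had a 3′ exon peak in the untreated list (4.82%, 2.78 to 8.23), against 8.85% (7.39 to 10.6) of the others, and 11 in the treated list (4.42%, 2.48 to 7.74), against 9.10% (7.62 to 10.8). Peaks elsewhere in the window were found at 30 ZNF genes (95% interval 8.57 to 16.7%) and at 26.9% (24.5 to 29.4) of the others in the untreated list, and at 15.7% (11.7 to 20.7) and 27.3% (24.9 to 29.9) in the treated list. This class is not confined to gene bodies. Of its 32 untreated and 40 treated ZNF pairs, 12 and 13 lay upstream of the canonical start. At another annotated start of the gene lay 9 and 11, and 14 and 20 had midpoints within 5 kb past the 3′ end. These groups can overlap. The intervals of the gene sets were apart in both lists for start peaks and for peaks elsewhere, and overlapped in both lists for 3′ exon peaks. Outside chromosome 19, coding genes other than ZNF genes had start peaks at 25.0% and 27.6%, above the other coding genes of chromosome 19. Of the distinct start peaks at ZNF genes, 9 of 83 untreated and 9 of 89 treated overlapped the start window of another coding gene of chromosome 19. The excess of start peaks over the other coding genes of chromosome 19 rested on narrow peaks. With peaks of 750 bp or wider only, start peaks were found at 12.4% of the ZNF genes in both lists, against 9.75% of the other genes in the untreated list and 11.8% in the treated list. In both lists the median width of start pairs was 500 bp at ZNF genes and 750 bp at the others. Pairs elsewhere had a median width of 750 bp in both gene sets and both lists.

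**Figure D1:**
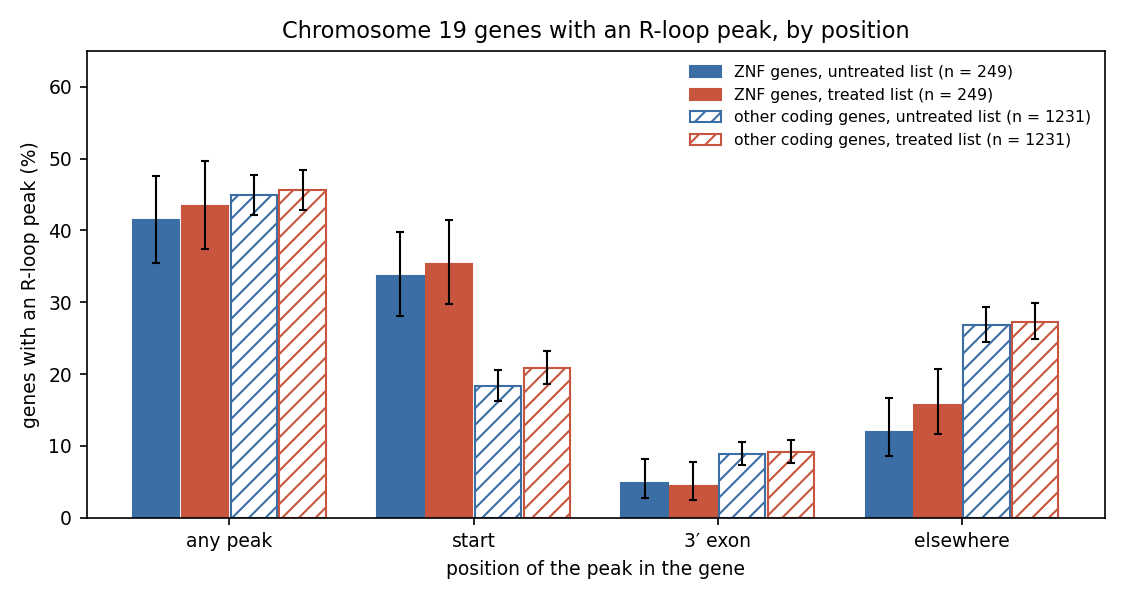
Share of genes with an R-loop peak (y axis, %) by position of the peak in the gene (x axis) for the 249 ZNF genes (filled) and the 1231 other coding genes of chromosome 19 (hatched), in the untreated (blue) and treated (red) lists; error bars are 95% Wilson intervals. The shares with any peak lie close together, whereas start peaks were found at 33.7% and 35.3% of ZNF genes and at 18.4% and 20.8% of the other genes.

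Start peaks made up 89 of the 135 untreated gene-peak pairs at ZNF genes (65.9%, 57.6 to 73.4) and 95 of the 147 treated pairs (64.6%, 56.6 to 71.9). Among the other coding genes they made up 31.4% (28.2 to 34.8) and 33.5% (30.3 to 36.8). The start window accounts for 2.95% of the window bases of the ZNF genes and 3.90% of those of the others. The last exon accounts for 10.8% and 4.66%. Last-exon peaks made up 10.4% of the untreated and 8.16% of the treated ZNF pairs, against 15.4% and 14.8%, with intervals that overlapped. In the first intron lay the midpoints of 24 untreated (17.8%, 12.2 to 25.1) and 34 treated ZNF pairs (23.1%, 17.0 to 30.6), against 90 of 748 and 113 of 792 at the other coding genes, and in the last exon those of 9 and 8 ZNF pairs. Few lay between the first intron and the last exon. No pair had its midpoint in an internal exon, which allows a share of up to 2.77% (untreated) or 2.55% (treated) by the Wilson upper bound, and 2 untreated and 3 treated pairs had it in an intron after the first. At the other coding genes 3.48% of the untreated and 3.28% of the treated pairs lay in internal exons, and 13.0% and 14.5% in later introns. The canonical transcripts had a median of 4 exons in ZNF genes and 7 in the others, so that ZNF genes have fewer internal exons and later introns.

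The strand of a peak in the lists was the gene's own in most pairs, 106 of 135 (78.5%, 70.9 to 84.6) in the untreated list and 113 of 147 (76.9%, 69.4 to 83.0) in the treated list. The other coding genes gave 70.5% (67.1 to 73.6) and 71.0% (67.7 to 74.0), and the intervals overlapped. At the starts the strands were arranged in order. Gene-strand start peaks, 69 untreated and 72 treated, had their midpoints a median of 88 bp and 124 bp downstream of the start site, and 59 and 61 of them lay downstream. Opposite-strand start peaks, 20 and 23, had median midpoints at -380 bp and -390 bp, and not one midpoint of the 20 or the 23 lay downstream. At the other coding genes 18 of 78 untreated and 19 of 84 treated opposite-strand start peaks had midpoints downstream of the start.

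**Figure D2:**
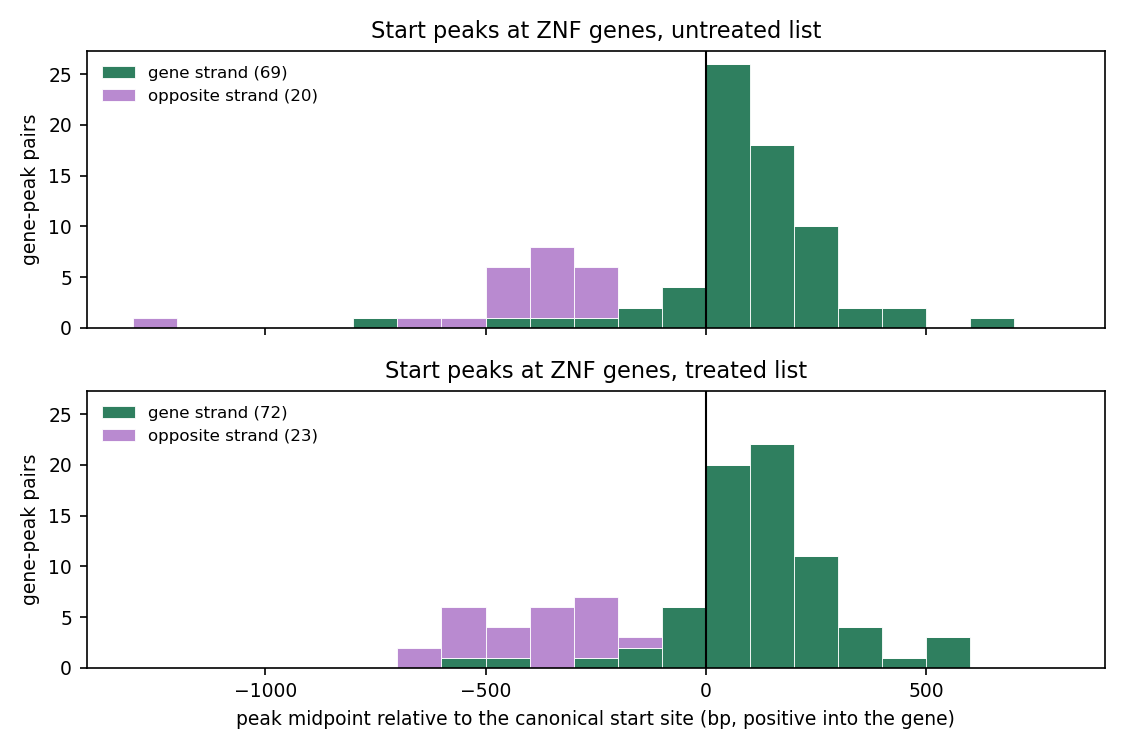
Number of gene-peak pairs (y axis) by distance of the peak midpoint from the canonical start site in 100-bp bins (x axis, bp), for start peaks on the gene strand (green) and the opposite strand (purple) in the untreated (top) and treated (bottom) lists. Gene-strand peaks gather just inside the gene, with medians of 88 and 124 bp, and opposite-strand peaks upstream, with medians of -380 and -390 bp.

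By gene, 64 ZNF genes had start peaks on the gene strand alone in the untreated list, 15 on the opposite strand alone and 5 on both. The treated list gave 65, 16 and 7. Start peaks were found in both lists at 67 genes, and the strand pattern was the same in 57 of them. At 3 genes the single strand differed between the lists. ZNF420 had an untreated gene-strand peak with its midpoint at 114 bp and a treated opposite-strand peak at -386 bp. ZNF302 had an untreated gene-strand peak at 600 bp and a treated opposite-strand peak at -400 bp. ZNF823 was the reverse, with an untreated opposite-strand peak at -334 bp and a treated gene-strand peak at 166 bp. In each of the 3 the peaks of the 2 lists did not overlap.

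The pair ZNF565 and ZNF146, which face away from each other, had the most distinct peaks, 6 over both lists. ZNF146 encodes a protein made almost entirely of zinc fingers, without a KRAB domain. Their canonical start sites are separated by 440 bases, chr19:36705568-36706007, and each list had a minus-strand peak on the ZNF565 side and an adjoining plus-strand peak on the ZNF146 side. Both peaks were 500 bp wide in the untreated list and 750 bp in the treated list. The ZNF565-side peak had its midpoint at 6 bp from the ZNF565 start in the untreated list and at 132 bp in the treated list, and the ZNF146-side peak lay at 52 bp and 178 bp from the ZNF146 start. The middle 200 bases of the interval, where the borders of the 2 peaks meet, held 12 CG dinucleotides (in capitals) at a GC content of 55.5%.
ZNF565/ZNF146, chr19:36705688-36705887, plus strand: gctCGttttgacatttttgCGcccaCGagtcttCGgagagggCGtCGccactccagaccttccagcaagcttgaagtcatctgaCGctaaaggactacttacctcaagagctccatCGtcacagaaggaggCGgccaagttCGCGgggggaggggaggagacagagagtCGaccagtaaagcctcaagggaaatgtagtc

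The 300 bases around each canonical start, 250 before and 50 after, were compared between ZNF genes with and without a start peak. Median GC content was 61.3% in the 67 ZNF genes with a start peak in both lists, 61.7% in the 21 with one in the treated list only, 60.0% in the 17 with one in the untreated list only and 58.3% in the 144 with none, and the quartiles of the first group (57.5 to 64.7%) and the last (55.2 to 63.8%) overlapped. The ETS core CCGGAA, searched on both strands, was present in 54.6% of all ZNF starts, in 58.2% of those with a start peak in both lists, 52.4% with one in the treated list only, 41.2% with one in the untreated list only and 54.9% with none. Among the other coding genes it was present in 23.4% of all starts, in 40.1% of those with a start peak in either list and in 18.1% of those with none. The CCAAT box, CCAAT, was present in 53.0% of ZNF starts, in the same 4 groups in 46.3%, 57.1%, 58.8% and 54.9%, against 37.1% of the others, 48.1% with a start peak and 33.6% without. The GC box, GGGCGG, was present in 67.9% of ZNF starts, in the 4 groups in 73.1%, 71.4%, 64.7% and 65.3%, against 66.2% of the others, 73.4% with a start peak and 63.9% without. These are matches of letters, and binding was not measured.

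Peaks over the last exon were few, and 14 genes had one in either list. Their median width was 750 bp in the untreated list, where 5 of 14 had the smallest width of 500 bp, and 1250 bp in the treated list, against 1250 bp in both lists for last-exon peaks at the other coding genes. On the gene strand were 12 of 14 untreated and 10 of 12 treated pairs. Most covered no coding base of the canonical transcript, 11 of the 14 untreated and 9 of the 12 treated pairs. The share of last-exon bases that is noncoding was not computed. The finger array, from the first to the last linker in frame, could be drawn for 232 ZNF genes, with a median length of 771 bp and 301557 bases in all. It was overlapped by a peak in 1 gene, ZNF180, in both lists (0.431% of the arrays). This count depends on the canonical reading frame. Translated in 3 frames on the gene strand, 2 of 14 untreated and 1 of 12 treated last-exon pairs held a linker. The further untreated pair was that of ZNF302, whose 500-bp peak held 2 linkers but covered no canonical coding base. Peaks covered 714 bases of the arrays (0.237%) in each list, less than the 1.01% and 1.13% of the whole gene windows. On chromosome 19, 5.73% of the 50-base words of the arrays occur more than once, against 1.50% in the start windows, and the part of read mapping in the result was not tested.

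ZNF180 carried 2 last-exon peaks in each list, both on the gene strand. The first, over the fingers, was 750 bp wide with the same borders in both lists (chr19:44980682-44981431). The second ran past the 3′ end and was 1500 bp wide in the untreated list and 2000 bp in the treated list, and shared its downstream border. ZNF561 had a peak across its 3′ end that was 750 bp wide in the untreated list and 2000 bp in the treated list, beside a 500-bp start peak with the same borders in both. ZNF358 had 1750 bp and 2000 bp across its 3′ end, and the peak also lies in the window of the neighbouring MCOLN1, a lysosomal ion channel gene. ZNF580 had 1750 bp and 1500 bp, and because that peak also overlaps the start window of ZNF581 downstream it cannot be given to 1 of the 2 genes.

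ZNF557 had 500 bp and 1000 bp inside its last exon, and ZNF579 had 750 bp and 500 bp at its 3′ end. ZNF431 had 500 bp and 1000 bp in the untreated list and one of 750 bp in the treated list. In 5 genes the last-exon peak was in 1 list only. ZNF480 (1500 bp), ZNF302 (500 bp) and ZNF829 (500 bp) had theirs in the untreated list, whereas ZNF875 (1500 bp) and ZNF101 (1000 bp) had theirs in the treated list. ZNF814 and ZNF497 were the exceptions in strand. ZNF814 had an opposite-strand peak of 1500 bp in each list, and ZNF497 had opposite-strand last-exon peaks of 500 bp in the untreated and 750 bp in the treated list that did not overlap each other, but the untreated one overlaps a treated 500-bp peak on the same strand just past the 3′ end.

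Other peaks lay past the 3′ end on the gene strand. Pairs outside the start window with a midpoint past the canonical 3′ end on the gene strand numbered 18 in 18 genes in the untreated list and 23 in 22 genes in the treated list, last-exon peaks that cross the end included. They made up 13.3% (8.60 to 20.1) and 15.6% (10.7 to 22.4) of the pairs, against 23.7% (20.8 to 26.8) and 22.1% (19.3 to 25.1) at the other coding genes, with intervals apart in the untreated list and overlapping in the treated list. Some of these peaks also overlap the start window of a neighbouring gene, 4 pairs in each list, at ZNF358, ZNF628 and ZNF649 in both lists, ZNF581 without treatment and ZNF766 with it. The midpoints of all 18 untreated pairs lay between 6 bp and 2974 bp past the end. Those of all 23 treated pairs lay between 208 bp and 4862 bp past it, and the medians were 1204 bp and 1128 bp. The median widths of the 18 and 23 pairs were 1120 bp and 1000 bp, against 500 bp for start peaks. ZNF121 had a 1750-bp peak and ZNF416 a 1250-bp peak with the same borders in both lists. ZNF146 had 2000 bp and 2250 bp, the widest peak at any ZNF gene in the treated list. ZNF473, whose protein works in the processing of histone mRNA 3′ ends, had 1750 bp and 1500 bp. ZNF226 had 750 bp and 1000 bp, and ZNF616 had 1500 bp and 750 bp. ZNF675 had 750 bp at 2974 bp past the end in both lists, and ZNF614 had 1000 bp in each list at different positions. ZNF566 (1500 bp), ZNF845 (1250 bp) and ZNF274 (750 bp) had such a peak in the treated list only.

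**Figure D3:**
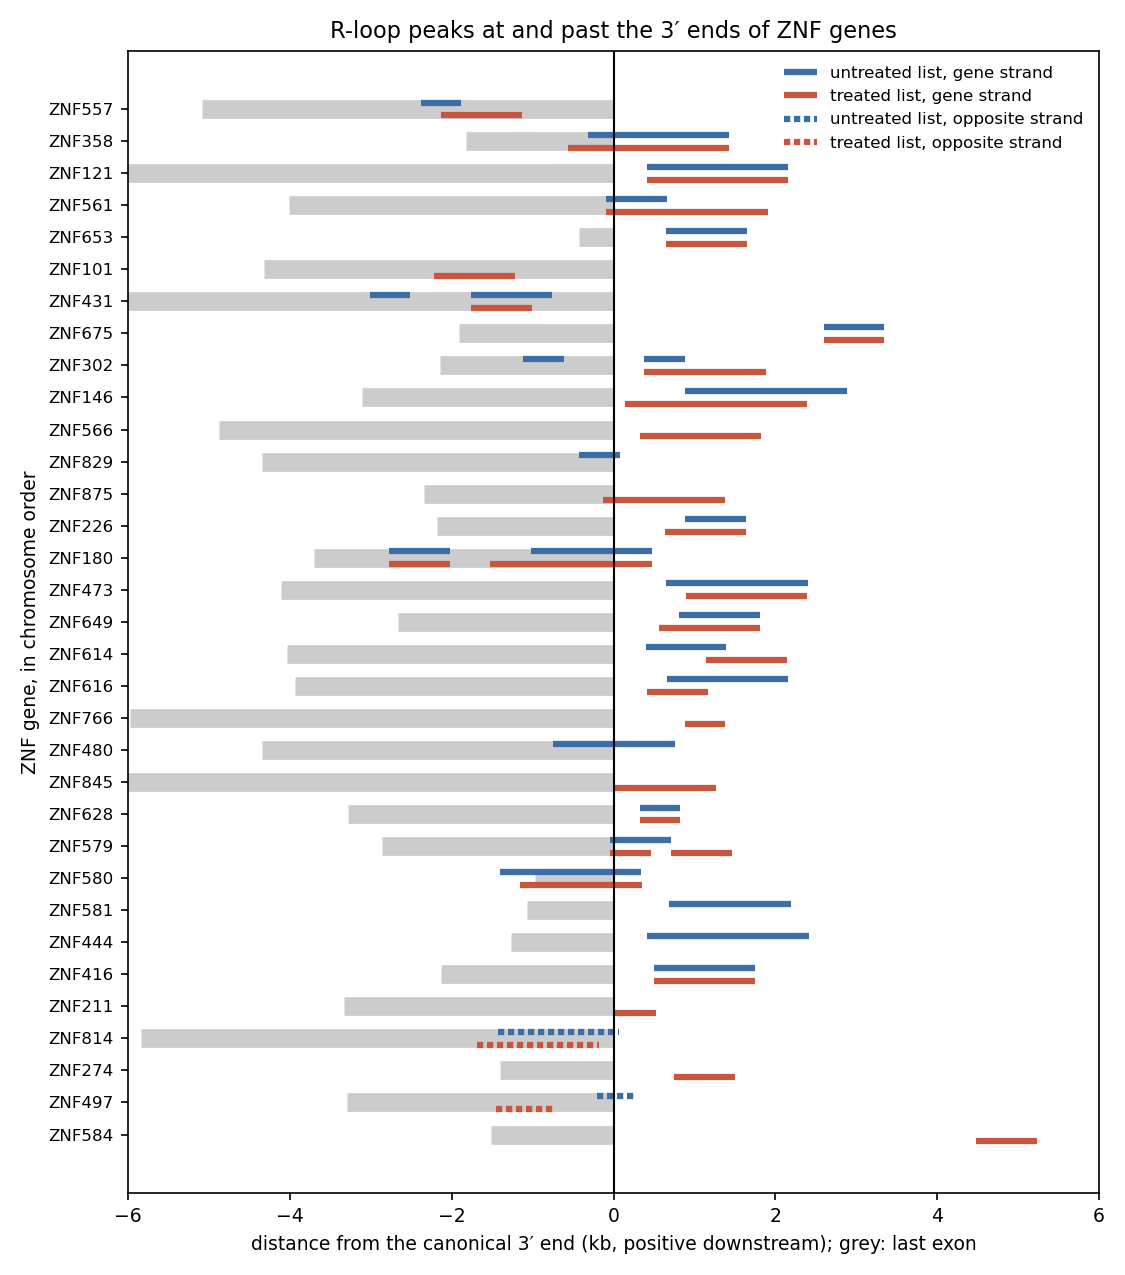
R-loop peaks at and past the 3′ ends of ZNF genes (y axis, in chromosome order) by distance from the canonical 3′ end (x axis, kb); grey bars are last exons (cropped at the left edge), blue and red bars are peaks of the untreated and treated lists, and dotted bars are peaks on the opposite strand. The bar farthest past the end, with its midpoint at 4862 bp, is the treated peak of ZNF584, and the opposite-strand peaks are those of ZNF814 and ZNF497. Opposite-strand peaks farther past the end, as at ZNF345 and ZNF83, are not among the bars.

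The sequence under the 3′ peaks differed from that under the same kind of peak at other genes. Gene-strand start peaks had a median GC content of 60.4% (quartiles 58.6 to 63.0) in the untreated list and 61.0% (58.5 to 64.8) in the treated list, near the 62.0% and 63.1% of the other coding genes. Gene-strand 3′ exon peaks had 41.3% (39.5 to 44.8) and 45.3% (43.1 to 48.7), against 57.2% (51.7 to 60.8) and 57.4% (53.9 to 61.8). Gene-strand peaks past the 3′ end had 48.4% and 47.9%, against 56.7% and 57.4%, and 45.7% and 47.0%, against 55.2% and 55.8%, without those that overlap the start window of another coding gene. Taken over all genes, with or without a peak, these regions differed in the same direction. Genes with and without a 3′ peak were not compared. The median last exon of all 249 ZNF genes had a GC content of 40.7% and the 2 kb past the 3′ end 43.0%, against 57.1% and 52.9% in the other coding genes. CG dinucleotides occurred at 0.75 and 0.74 of the count that base composition gives in gene-strand start peaks of ZNF genes, and at 0.27 and 0.30 in 3′ exon peaks. The other coding genes had 0.75 and 0.74 at starts and 0.34 and 0.37 in 3′ exon peaks. G over C skew on the gene strand was close to 0 at the starts, with medians of 0.015 and 0.010.

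**Figure D4:**
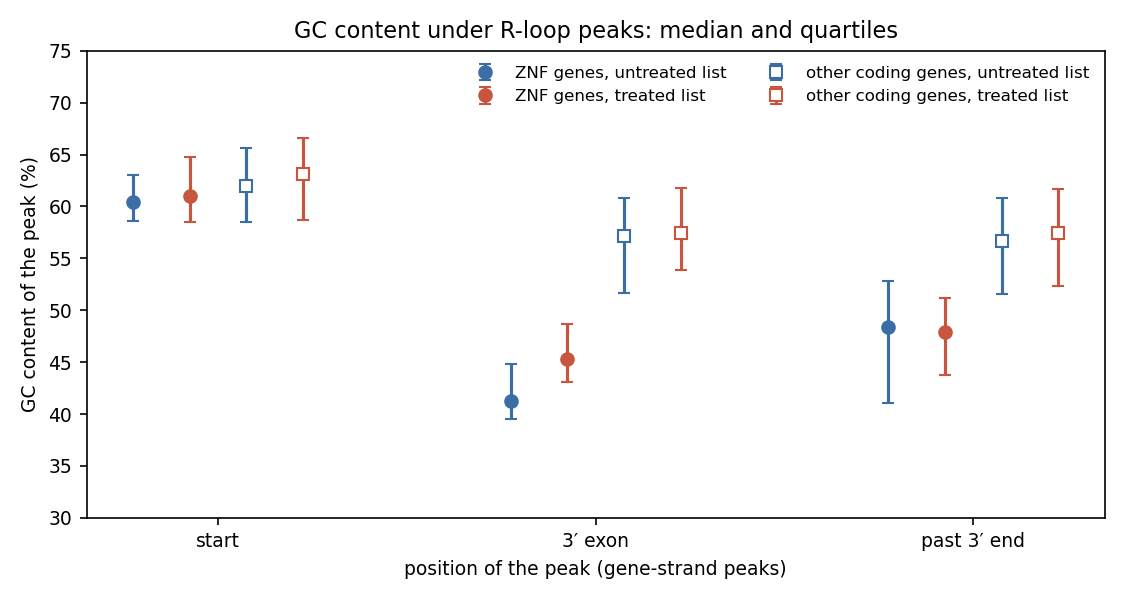
GC content of gene-strand R-loop peaks (y axis, %; the axis begins at 30%) by position (x axis) for ZNF genes (filled circles) and other coding genes of chromosome 19 (open squares) in the untreated (blue) and treated (red) lists; markers are medians and bars the quartiles. Start peaks lie close together, and the 3′ exon peaks of ZNF genes, at 41.3% and 45.3%, lie below the 57.2% and 57.4% of the other genes.

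Between the lists, 88 ZNF genes had a peak in both (35.3%, 29.7 to 41.5), 20 in the treated list only (8.03%, 5.26 to 12.1) and 15 in the untreated list only (6.02%, 3.68 to 9.70), and 126 had none. The other coding genes gave 38.7%, 6.90% and 6.26%, within these intervals. Of the peaks themselves, 91 of 118 untreated (77.1%, 68.8 to 83.8) and 89 of 129 treated (69.0%, 60.6 to 76.3) shared 1 bp or more with a peak of the opposite condition, against 75.8% and 70.5% at the other coding genes. The same borders and strand in both lists were found for 46 peaks, 39.0% (30.7 to 48.0) of the untreated and 35.7% (27.9 to 44.2) of the treated ones, against 29.8% (26.0 to 33.9) and 27.6% (24.0 to 31.4) at the other coding genes, with intervals that overlapped. By width, 22 of 24 untreated peaks of 1000 bp or wider overlapped the treated list (91.7%, 74.2 to 97.7) and 45 of 66 of 500 bp (68.2%, 56.2 to 78.2), with intervals that overlapped. The treated list gave 22 of 26 (84.6%, 66.5 to 93.8) and 41 of 66 (62.1%, 50.1 to 72.9). At the other coding genes, with more peaks, the intervals were apart, 89.6% (84.9 to 92.9) against 63.3% (56.2 to 69.9) without treatment and 87.3% (82.3 to 91.1) against 51.3% (44.3 to 58.2) with it.

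The 20 genes with a peak in the treated list only had 23 pairs, 17 of them at a start and 17 of 500 bp. Of all treated ZNF pairs 64.6% lay at a start, and 51.2% of all treated ZNF peaks were 500 bp wide. ZNF101 had a 500-bp start peak with its midpoint at 196 bp and the 1000-bp last-exon peak. ZNF562 had a 500-bp peak on each strand, at 182 bp and -568 bp. ZNF766 had a 500-bp start peak at 342 bp, and its second peak lies at the start of ZNF480. ZNF91, which represses SVA retrotransposons, had a 750-bp start peak at 144 bp, and ZNF724 a 750-bp start peak at 316 bp. Other genes of this group were ZNF136, ZNF44, ZNF441, ZNF568 and ZNF324B.

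The 15 genes with a peak in the untreated list only had 15 pairs, 11 of them at a start and 11 of 500 bp. The shares over the whole untreated list at ZNF genes were 65.9% of pairs at a start and 55.9% of peaks of 500 bp. ZNF426 had a 750-bp start peak at 102 bp, ZNF599 a 750-bp start peak at 62 bp and ZNF430 a 500-bp start peak at 132 bp. ZNF83 had a 750-bp opposite-strand peak beyond its canonical 3′ end. ZNF444, a gene with a SCAN domain, had a 2000-bp peak past its 3′ end, and its placement rests on the 1-kb window. A treated peak overlaps the untreated one but begins 1420 bp beyond the gene record. It was the single gene of the 15 whose peak overlapped the other list, and none of the 20 treated-only genes had such a peak. Near the same limit, ZNF544 and ZNF274 were counted in the treated list with peaks 821 bp and 754 bp outside their records, and ZNF266 was not, with a treated peak 1011 bp away.

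The ZNF genes fell into 12 clusters of 5 or more members with gaps of at most 250 kb, which held 233 genes. The share of members with a peak varied between clusters. In the cluster from ZNF264 to ZNF446 (chr19:57702868-58992597) 20 of 43 genes had an untreated peak and 21 a treated one, and in that from ZNF175 to ZNF331 (chr19:52074536-54083523) 19 and 21 of 40. The cluster from ZNF565 to ZNF573 had 13 of 26 in each list and that from ZNF317 to ZNF846 7 of 12 in each. From ZNF302 to ZNF792 there were 4 and 3 of 5, and from ZNF628 to ZNF581 4 of 7 in each list. All ZNF genes together gave 41.4% and 43.4%. Near these shares were the clusters from ZNF737 to ZNF254, with 11 of 29 (37.9%), and from ZNF554 to ZNF77, with 2 of 5, in each list. From ZNF575 to ZNF180 there were 9 and 8 of 23, and from ZNF653 to ZNF791 6 and 9 of 26. No intervals were computed for single clusters. The cluster from ZNF101 to ZNF486 had no untreated peak at its 8 genes and a treated peak at 1, ZNF101, and the cluster from ZNF787 to ZNF835 had an untreated peak at 1 of 9, ZNF444, and no treated peak. Of the 16 genes outside clusters, 7 and 8 had a peak.

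**Figure D5:**
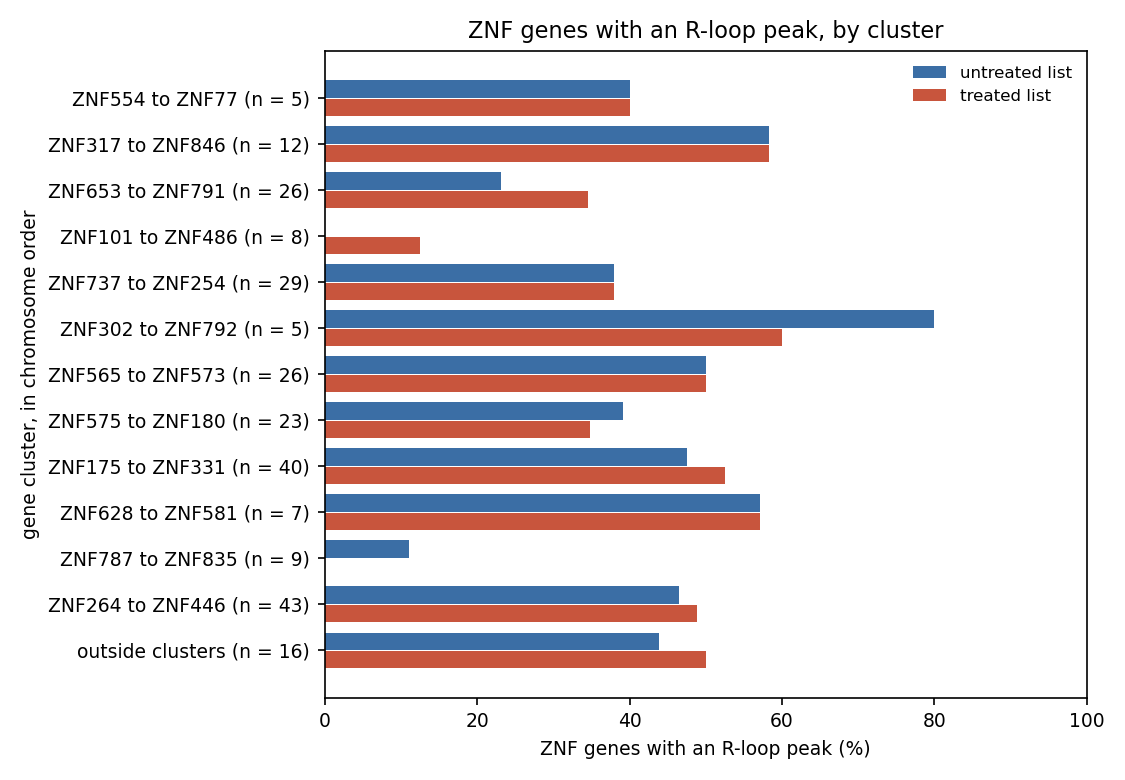
Share of ZNF genes with an R-loop peak (x axis, %) in each cluster of 5 or more ZNF genes and outside clusters (y axis, in chromosome order with the number of genes), in the untreated (blue) and treated (red) lists; no bar means 0 genes. The clusters from ZNF101 to ZNF486 and from ZNF787 to ZNF835 have 1 gene with a peak between them in each list.

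Genes whose products act with KRAB zinc-finger proteins were looked at as a list of 15, of which 12 had an untreated peak and 10 a treated one, 7 and 6 of them at the start. All but TRIM28 and ZNF274 lie outside chromosome 19, where 38.7% and 40.9% of the coding genes other than ZNF genes had any peak and 25.0% and 27.6% a start peak. TRIM28, the corepressor that KRAB domains bind, lies on chromosome 19 and had gene-strand start peaks in both lists, 500 bp wide in the untreated and 750 bp in the treated list, and each list had a further peak of 500 bp that did not overlap the other list, inside the gene on the gene strand without treatment and at the start on the opposite strand with it. SETDB1, which methylates histone H3, had no peak in either list. ATF7IP, the partner of SETDB1, had a 750-bp start peak with the same borders in both lists. CBX3, an HP1 protein, had a peak over its last exon of 2500 bp in the untreated and 2250 bp in the treated list. CBX1, also an HP1 protein, had peaks in the treated list only, and ATRX, DAXX, TASOR and MORC2 had peaks in the untreated list only, although 1 of the 2 ATRX peaks overlaps a treated peak that lies outside the gene window. ZNF274, a ZNF gene whose protein binds the 3′ ends of other ZNF genes, had the 750-bp treated peak 1128 bp past its own 3′ end and no untreated peak. The 20 other C2H2 genes of chromosome 19 are named ZFP, ZSCAN, ZIM, ZIK, ZBTB and the like. An untreated peak was found at 7 of them (35.0%, 18.1 to 56.7) and a treated one at 5 (25.0%, 11.2 to 46.9), all among the 7. The 1231 other coding genes, which include these 20, gave 44.9% and 45.6%. Start peaks were found at 25.0% (11.2 to 46.9) and 20.0% (8.07 to 41.6) of the 20, against 18.4% and 20.8%. The ZNF genes gave 33.7% and 35.3% for start peaks, within the intervals of the 20.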

How the data were processed

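For spKAS-seq the authors used Trim Galore for trimming, Bowtie2 for alignment (to hg19), Picard for duplicate removal and KAS-Analyzer for signal normalization; R-loops were defined from 2 samples per condition by an earlier published procedure, and tool versions are not given in the sources used here. The deposited values are peak coordinates and strands, 1 list per condition attached to its replicate 1, and whether a list holds pooled calls or calls shared by both samples is not stated; they come with no depth or height, so precision of a single peak is unknown. Widths at ZNF genes are multiples of 250 bp, which limits distances. The ZNF members, gene lists and settings were chosen with earlier results of these data known. Lists were set against GENCODE 44 on GRCh37 with Python 3.11.15 (figures with matplotlib 3.10.9); position used the Ensembl canonical transcript (the longest coding one for 3 members), and assignment was checked on 200 placed peaks. Named genes were the 12 widest last-exon cases, the 5 widest peaks per list, the 5 widest treated-only and untreated-only genes, the 5 with most peaks, those nearest the 1-kb limit, ZNF274 and TRIM28; other names were picked with their values in view. Alternatives varied the gene and start windows, the start site, the peak width, the strand and the overlap rule.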

Additional observations from a re-analysis of the deposited data

How the results depend on the processing

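No paired analysis was possible because a condition is given as 1 list, and leaving out a replicate was not run for the same reason. Over 50 results and 160 alternatives, 108 values stayed within the limit set for them and 52 did not. The limit was the 95% interval for a share, a factor of 1.5 for a count of genes or clusters and 1 SD for a GC median. In the values below ZNF genes come first, then the other coding genes of chromosome 19, each untreated then treated. The alternatives for genes with a start peak and for peaks past the 3′ end were chosen after seeing the data.

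With peaks of 750 bp or wider, genes with any peak were 20.9% and 23.7%, and 33.1% and 34.9%, genes with a start peak 12.4% and 12.4%, and 9.75% and 11.8%, and 41 ZNF genes had a peak in both lists. Start peaks were then 53.4% and 47.1% of pairs, and 25.2% and 27.8%. Last-exon peaks were 15.7% of treated ZNF pairs, and 19.1% and 18.7% at other genes. Gene-strand pairs were 82.8% and 85.7%, and 76.7% and 73.7%, and 60.3% of treated ZNF peaks overlapped the other list.

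With gene-strand peaks only, genes with any peak were 34.5% and 35.7%, and 33.1% and 34.2%, and genes with a start peak 27.7% and 28.9%, and 12.7% and 14.6%. With no flanks, genes with any peak were 36.9% and 37.3%, and 33.9% and 35.9%, so that the order of the gene sets turned, as it did with gene-strand peaks. Pairs on the gene strand were then 81.7% and 84.3%, and 71.9% and 71.3%. With 2-kb flanks other genes gave 48.4% and 50.1%, and with the midpoint in the window 40.5% and 41.8%.

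With any annotated start, start peaks were 73.5% of treated ZNF pairs and 44.3% and 46.7% of pairs at other genes, and 24.8% and 27.1% of other genes had one. The midpoint rule gave other genes 22.5% and 25.1% of pairs at the start, 7.09% and 7.07% in the last exon, and 13.4% and 16.0% of genes with a start peak. A 1000-bp start window gave them 35.6% and 37.4% of pairs, and 20.9% of genes in the untreated list. Peaks in 1 gene window gave 84.2% and 82.6% of pairs on the gene strand, and 73.6% and 73.5%. At 50% reciprocal overlap, 70.6% and 64.9% of peaks at other genes were shared. The share of genes with a start peak was higher in ZNF genes than in other genes in both lists under the 5 settings run for it in both gene sets (1000-bp start window, any annotated start, midpoint, 750 bp or wider, gene strand only), least so with peaks of 750 bp or wider. Heights and depth are not in the lists, so weak peaks cannot be told from strong ones.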

Other observations

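The 266 ZNF genes of other chromosomes (1 to 18, 20 to 22 and X) had an R-loop peak at 48.9% (42.9 to 54.9) in the untreated list and at 47.7% (41.8 to 53.7) in the treated list. Start peaks were found at 29.3% (24.2 to 35.1) and 30.8% (25.6 to 36.6) of them. The 18352 other coding genes outside chromosome 19 had any peak at 38.7% (38.0 to 39.4) and 40.9% (40.2 to 41.7), below the intervals of these ZNF genes. They gave 25.0% (24.4 to 25.6) and 27.6% (27.0 to 28.3) for start peaks, which lie within the intervals of the ZNF genes.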
